A study of Mus musculus with 14 samples.

Results

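The immunoglobulin heavy chain locus was read in B-1a cells from the peritoneum of wild-type (WT) and Bmi1 KO mice through the array probes that lie in it. A probe was a member if it was no control spot, if its design position (genome build mm9) fell between 114400000 and 117300000 of chromosome 12, and if its description spoke of an immunoglobulin, Ig, heavy chain, antibody or V region. Of 55681 probes on the array, 98 met this rule, each of them a 60-base oligonucleotide of the minus strand. For a test, a probe had to stand well above background on 4 or more of 7 arrays in one genotype or the other. This left 90 members, out of 29689 such probes in all. Of the 90, 8 met this rule only through the WT arrays and 0 only through the KO arrays. There were 7 Bmi1 KO and 7 WT samples, 1 array each, from 2 sets of experiments. Set 1 held 3 KO and 3 WT samples, and set 2 held 4 of each. The labels give the genotype and the cell type only. The Bmi1 allele, the age of the mice and the gates of the sort are not in the labels. Nor is it said that each sample is a different mouse, so the p-values rest on a spread between samples that may be technical.

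A B cell builds its heavy chain gene by joining 1 of many V segments to a D and a J segment upstream of the constant regions, and reads the joined V segment out together with the mu and delta constant regions before any switch to gamma, epsilon or alpha. V segments closest to the J segments are called proximal and those at the far end, mostly of the large Ighv1 (J558) family, distal. B-1a cells are innate-like B cells of the body cavities that secrete natural IgM, and they are known for using a few V segments again and again, among them the Ighv11 and Ighv12 families in receptors for phosphatidylcholine. Bmi1 belongs to Polycomb repressive complex 1, which keeps target genes silent, and the comparison of genotypes asks how the expression of such cells differs without it. In a bulk sample, a lower V probe can mean fewer cells with that segment or less RNA per cell, and these cannot be told apart.

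The sequences below are those of 5 probes, 4 among the V segments and JX120199 on the J segment side, with the smallest p-values between genotypes in each direction that passed an unadjusted p under 0.05 and were well above background on at least 3 KO arrays. They are written 5′ to 3′, with the longest run that each shares with any other member in capitals.
JX120281: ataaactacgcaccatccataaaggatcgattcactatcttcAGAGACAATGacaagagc
JX120259: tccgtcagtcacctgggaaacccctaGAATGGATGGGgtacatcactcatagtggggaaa
X87746: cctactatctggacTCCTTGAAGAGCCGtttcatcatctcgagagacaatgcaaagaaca
S63552: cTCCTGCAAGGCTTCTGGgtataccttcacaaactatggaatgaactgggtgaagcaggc
JX120199: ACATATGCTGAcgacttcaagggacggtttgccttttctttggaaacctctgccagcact
The runs in capitals are 10, 11, 14, 17 and 11 bases long, in that order. No other member is more than 83.3% identical to any of these probes over an overlap of at least 40 bases. The 3 probes that read lower in KO are JX120281, JX120259 and X87746, and the 2 that read higher are S63552 and JX120199. The files describe JX120281, JX120259 and JX120199 as heavy chain mRNA of strain C57BL/6, X87746 as a heavy chain variable region mRNA and S63552 as the V region of a hybridoma antibody. No V segment is named for these 5 probes in the files, and no member is named there for the Ighv11 or Ighv12 family.

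Signal was lower on part of the KO arrays. The share of all probes well above background was between 20.6% and 56.7% on KO arrays and between 43.5% and 63.3% on WT arrays, and 4 KO arrays lay under 40% (set 1 replicate 4 and set 2 replicates 1, 2 and 3). No spot was saturated. Of the pair of probes for Bmi1, neither was lower in KO (differences of 1.09 and 3.74 on the log2 scale, limma adjusted p = 0.548 and 0.176). Which part of Bmi1 was deleted is not stated in the sources at hand, and these probes therefore do not check the genotype labels. Values below are log2 intensity minus the array's 75th percentile, and a difference is KO minus WT with the set as a covariate. The median difference of all tested probes was 0.32, and a difference relative to that median is called relative.

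No heavy chain probe passed the genome-wide test between genotypes. Single V region probes differed widely between the group means, the most by -5.57 on the log2 scale. The mu and delta constant regions differed by 1.12 and 1.13, near the median of 1.07 over all probes above background on all 14 arrays. With limma and Benjamini-Hochberg adjustment over all 29689 probes, 0 of 90 members were higher and 0 were lower in KO at an adjusted p under 0.05 (background 0.00337% higher, 0.0269% lower and 0.0303% either way). At an unadjusted p under 0.05, 2 members were higher and 4 lower, against 8.18% and 5.38% of all probes. The median difference of the members was 0.42, or 0.10 relative to all probes, with a range of relative differences from -5.89 to 1.78. Members above and below the all-probe median numbered 48 and 42. The sign of the relative median was not stable: it was -0.53 with quantile normalization, -0.06 with normexp background correction and -0.29 without the filter on dim probes. In 1 member, JX120281, all 7 KO arrays lay below all 7 WT arrays (background 0.131%), and in 0 members all KO arrays lay above (background 0.128%).

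JX120281 (chromosome 12, 115286517 to 115286576) showed the largest difference of the locus. Its level ran from 7.06 to 8.39 on the WT arrays, with a median of 7.29. On KO arrays it was 2.41, 4.44 and -3.54 in set 1 and 3.81, 6.72, -3.17 and 2.78 in set 2. The groups did not overlap, the WT arrays lay within a narrow band, and the KO arrays were widely spread. WT arrays averaged 7.49 ± 0.51 (SD, n = 7) and KO arrays 1.92 ± 3.86 (SD, n = 7). Signal was above background on all 7 WT arrays and on 5 of 7 KO arrays. The difference was -5.57 (SE 1.32, limma adjusted p = 0.182), and the exact permutation test within sets gave p = 0.00143 (two-sided), the smallest it can give. It was -6.32 (SE 2.08) in set 1 and -5.01 (SE 1.80) in set 2. The limma adjusted p passed the threshold in 2 alternatives. It was 0.0200 with normexp background correction (relative difference -5.40), where 13 probes passed over the whole array. It was 0.0465 with array quality weights (relative difference -4.88), where 37 passed. The array weights were added after seeing the data. Without the 4 dim KO arrays the relative difference was -4.19 (adjusted p = 0.0990), and within slide 2 alone, with 4 KO and 2 WT arrays, it was -5.46. By the order of genes in RefSeq (GRCm38.p6), 36 V segments stand between the 2 segments named in the files on either side of it. These 2 are Ighv5-12 and Ighv7-4, and the 36 include both Ighv11 segments, Ighv12-1 and Ighv12-2. X87746 and S63552, the latter higher in KO, lie in the same stretch, so the position assigns none of these probes to a segment.

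JX120259 (115604859 to 115604918) came next among the probes that read lower. WT arrays read 4.71 to 6.63, with a median of 5.96. KO arrays read -0.33, 3.24 and -4.55 in set 1 and 6.39, -0.62, 3.62 and 2.57 in set 2. The groups overlapped through 1 array: 6 KO arrays lay below all WT arrays, and KO set 2 replicate 1 lay among them. Signal was above background on all 7 WT arrays and on 5 of 7 KO arrays. The difference was -4.32 (SE 1.19, limma adjusted p = 0.227, exact permutation p = 0.00571, two-sided), with -6.28 (SE 1.76) in set 1 and -2.85 (SE 1.52) in set 2. Without the 4 dim KO arrays the relative difference was -3.76 (limma adjusted p = 0.548), against -4.64 with all arrays. The files place this probe between those described as heavy variable 13-2 and named Ighv6-6, and RefSeq order puts 4 segments there, Ighv12-3 and Ighv6-3 to Ighv6-5. M32051, the only other member in the same stretch and a V region from a hybridoma, had a difference of -0.37 (SE 0.82, limma adjusted p = 0.844).

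X87746 (115076801 to 115076860) was detected on all 7 WT arrays and on 3 KO arrays. Its WT levels ran from 1.57 to 4.41 with a median of 3.20, and its KO levels were -6.24, 2.06 and -5.07 in set 1 and 2.24, -1.48, -2.47 and 3.47 in set 2. The KO arrays thus fell into 3 within the WT range and 4 below all of it. It met the detection rule only through the WT arrays, where it is high, so its difference is a description. The relative difference was -4.32 (SE 1.19), with 4 of 7 KO values not above background, and -2.42 without the 4 dim arrays. JX120311 was the fourth member with an unadjusted p under 0.05 in this direction, at -1.95 (SE 0.89), and it too met the detection rule only through WT, with 1 KO and 5 WT arrays above background. M32395 and X66649, V region probes of the same stretch chosen by small p in this direction, had differences of -1.88 (SE 1.23) and -2.39 (SE 1.48). They were above background on 2 and 3 KO arrays and on 6 and 7 WT arrays, and thus also passed only through WT. The same stretch held S63552 at 2.10 and JX120338 at 1.03. Of the 28 tested middle V probes, 17 had a difference above 0. X66649 turned to 1.91 relative to all probes when the dim arrays were left out.

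**Figure D1:**
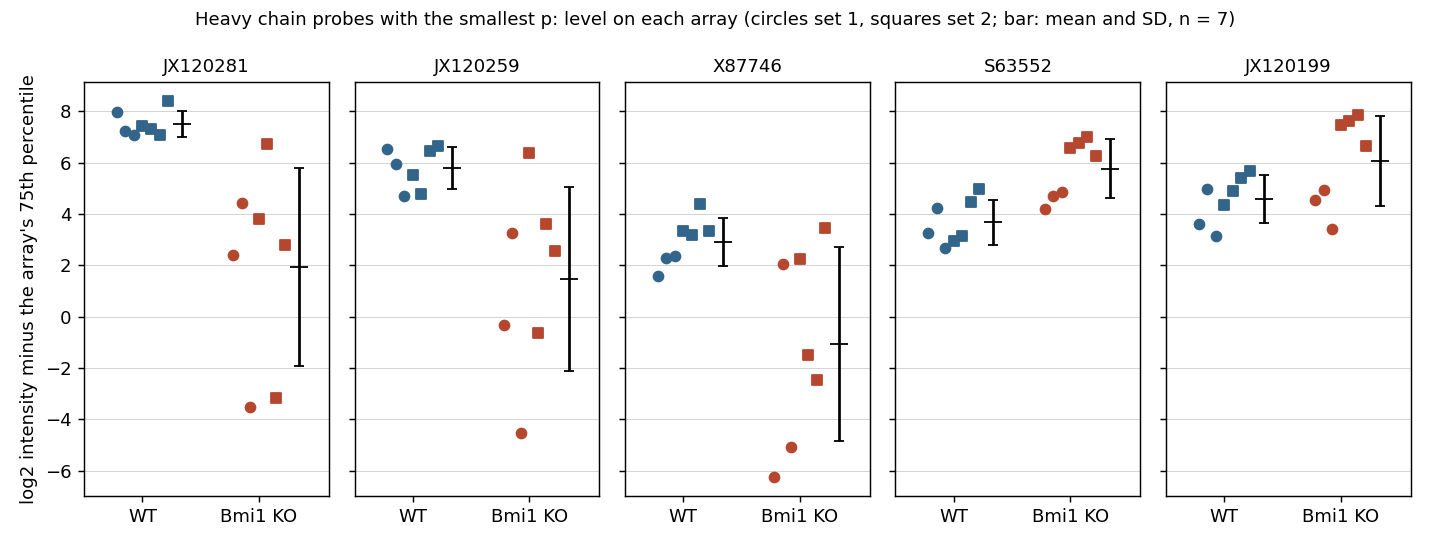
Level of 5 heavy chain probes on each of 7 WT and 7 Bmi1 KO arrays, as log2 intensity minus the array's 75th percentile. By design position, 4 lie among the V segments and JX120199 on the J segment side. Circles are set 1, squares set 2, and bars mean and SD. JX120281 reads 7.06 to 8.39 on WT arrays and -3.54 to 6.72 on KO arrays, and S63552 reads 2.67 to 4.97 on WT and 4.19 to 6.99 on KO arrays.

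In the other direction, S63552 (115379078 to 115379137) had the smallest p. It read 2.67 to 4.97 on WT arrays with a median of 3.24, and 4.19, 4.71 and 4.87 in KO set 1 and 6.55, 6.78, 6.99 and 6.26 in KO set 2. All 4 KO arrays of set 2 lay above every WT array, while the 3 of set 1 lay within the upper WT range. The difference was 2.10 (SE 0.56, limma adjusted p = 0.219, exact permutation p = 0.00286, two-sided), and it was above background on all 14 arrays. Its relative difference was 1.78, and 0.96 with quantile normalization. Relative to the probes above background on all 14 arrays it was 1.03.

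The design places JX120199 at 114668128 to 114668187, between the mu constant region and Adam6b, on the side of the J segments. It is described as a partial heavy chain mRNA. Its position was not checked against a genome here. The class gives only where the design puts the probe, not whether it reads a V or a J segment. WT arrays read 3.13 to 5.68, and KO arrays 3.42 to 4.95 in set 1 and 6.63 to 7.87 in set 2, so that again the 4 KO arrays of set 2 stood above all WT arrays. The difference was 1.49 (SE 0.58, limma adjusted p = 0.341), and 0.42 relative to the probes above background on all 14 arrays. The next 6 members by p in this direction were the AF006582 probe at 114826538, M18488, M19903, AF113109, AF303881 and the ENSMUST00000103550 probe at 117202215. Their differences lay between 0.99 and 1.46 and none passed at an adjusted p under 0.05. AF303881 turned to -0.09 relative to all probes with quantile normalization. M18488 stood at 0.11 relative to the probes above background on all 14 arrays.

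The position along the locus was described by classes. There were 13 constant region probes, 1 between mu and Adam6b, 11 proximal V probes up to Ighv5-12, 29 middle V probes up to Ighv10-3 and 44 distal V probes beyond it, of which 7, 1, 11, 28 and 43 were tested. The relative difference had a median of 0.80 over the constant region probes, 0.52 over proximal, 0.15 over middle and -0.24 over distal V probes. These medians were lower from class to class going outward, and some signs flipped with the setting. Middle V probes had -0.31 and distal V probes -0.70 with quantile normalization. With signal required on all 14 arrays, 3 constant region probes had a median of 0.06 and 3 proximal V probes 0.11. In that setting 12 middle V probes had -0.23 and 22 distal V probes -0.64. Without the dim arrays the constant regions had -0.18, proximal V probes 1.28, middle V probes 0.95 and distal V probes 0.14. Single arrays moved them as well. Without KO set 2 replicate 2 the middle median was 0.60 and the distal 0.34, and without KO set 2 replicate 1 they were -0.35 and -0.58, the ends of the range over the 14 arrays left out in turn. Without KO set 1 replicate 2 the middle median was -0.07. The proximal median stayed above 0 in all 26 alternatives, between 0.05 and 1.28, though several of these can hardly change a relative difference. The 4 members that read lower at an unadjusted p under 0.05 lie among the middle V probes, and X87746 and JX120311, which met the detection rule only through WT, are 2 of them.

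**Figure D2:**
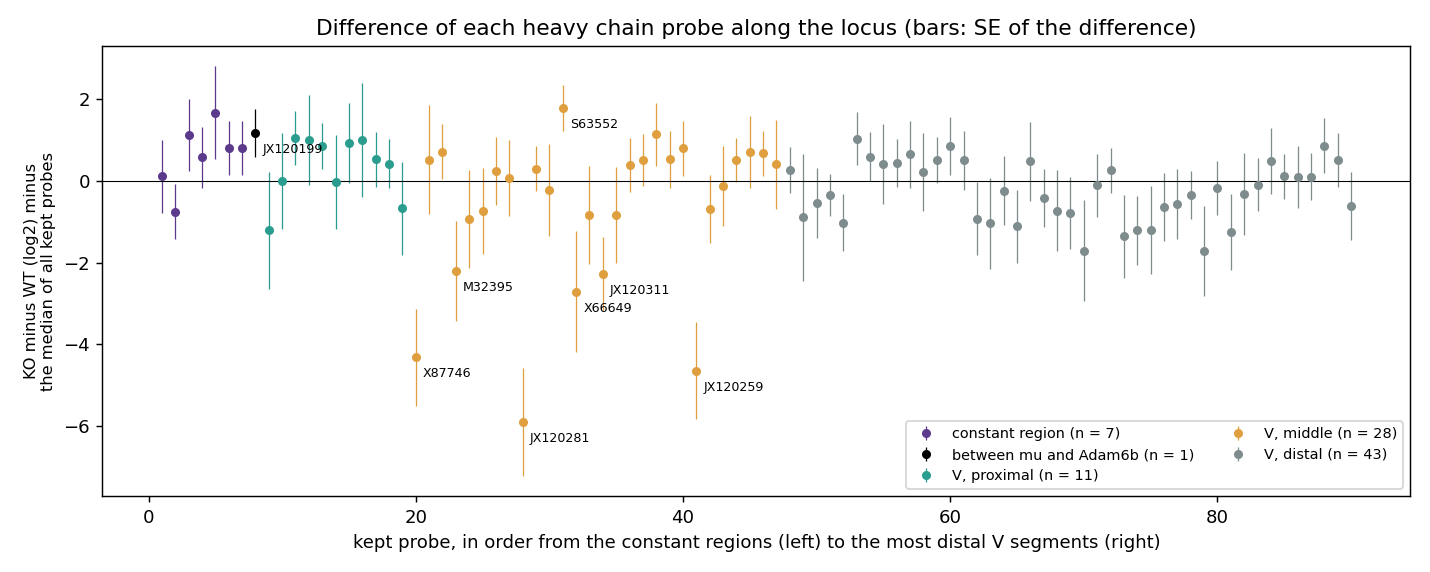
Difference of each of the 90 tested heavy chain probes, KO minus WT on the log2 scale relative to the median of all tested probes, in their order along the locus (bars SE, n = 7 arrays per genotype). Most probes lie near 0, and JX120281, JX120259 and X87746 stand at -5.89, -4.64 and -4.32 among the middle V probes.

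None of the probes that the files name by segment passed the test. AK134885, which the design names Ighv14-2 but describes as a delta chain, is given with the constant regions. Ighv5-12 (U23092) had a difference of -0.35 (SE 1.14), the heavy variable 13-2 probe 1.12 (SE 0.67), Ighv6-6 (M59922) 0.20 (SE 0.97) and Ighv10-3 (AF045483) 0.73 (SE 1.09), with limma adjusted p from 0.421 to 0.933. Of the 13-2 probe, 5 KO arrays lay above all WT arrays and 1 below. Among distal segments, Ighv1-61 (AF296422) read 6.75 to 7.68 on WT and 6.59 to 10.2 on KO arrays, with a difference of 0.58 (SE 0.55). Ighv1-77 (AF045501) had 0.23 (SE 0.65). The 9 distal probes named only Igh-VJ558 had differences between -1.04 (BC103785) and 0.73 (AF296418). U55531, a distal V probe chosen after its values were seen, read 3.44 to 3.99 on the 7 WT arrays and -0.58 to 6.76 on KO arrays. Its SD was 2.44 over KO and 0.20 over WT arrays, and the SD was larger over KO arrays in 84.8% of all tested probes. The difference of U55531 was -0.61 (SE 0.90, limma adjusted p = 0.757).

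Among the constant regions, the mu and delta probes, which read the IgM and IgD chains of unswitched B cells, were above background on all 14 arrays. The mu probe read 6.89 to 8.27 on WT arrays with a median of 7.43, and 6.96 to 11.23 on KO arrays with a median of 8.73. Its difference was 1.12 (SE 0.66, limma adjusted p = 0.413), and 4 KO arrays lay above all WT arrays. These 4 were the dim arrays, and without them the relative difference of mu was -0.18, against 0.80 with all arrays. The delta probe (AK134885) is described as the membrane-bound delta chain C region and stands next to the mu probe, but its gene name in the array design is Ighv14-2, and this conflict was not settled. It read 4.67 to 6.58 on WT and 4.61 to 9.05 on KO arrays, with a difference of 1.13 (SE 0.66, limma adjusted p = 0.413). Relative to the probes above background on all 14 arrays, whose median difference was 1.07, mu stood at 0.05 and delta at 0.06.

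Switched constant regions were measured less well. The gamma 3 probe was above background on all arrays and read 1.09 to 4.32 on WT and -0.65 to 8.88 on KO arrays. Its difference of 1.99 (SE 1.13, limma adjusted p = 0.404) became -0.86 relative to all probes without the dim arrays. The probe described as gamma polypeptide (ENSMUST00000103418) had 1.45 (SE 0.88), the tested gamma 1 probe 0.90 (SE 0.74), gamma 2C 0.43 (SE 0.88) and IgG2a (BC019489) -0.43 (SE 0.67), with adjusted p from 0.424 to 0.828. The gamma 2C probe passed the detection rule through 4 WT arrays, with 2 KO arrays above background. The IgG2a probe also passed only through WT, with 6 WT and 2 KO arrays. The gamma 1 probe passed through 4 of each, just inside the rule. The 8 probes outside it were above background on at most 3 arrays of either genotype: epsilon, a second gamma 1 probe, a second IgG2a probe, 3 probes named Igh-VJ558 that lie where RefSeq order puts alpha, and the V probes L39085 and JF690619. BC092269 is named Ighg in the array design but lies among the middle V segments, and its difference was -0.41 (SE 1.05). X66662, named Ighv7-4, is the tested member of the S107 family known from antibodies to phosphorylcholine, and it had -0.51 (SE 1.17). It met the detection rule only through WT, with 7 WT and 3 KO arrays above background.

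The KO arrays differed more among themselves than the WT arrays did. The SD over KO arrays was larger than over WT arrays in 84 of 90 members (background 84.8%), with a median SD of 2.13 in KO and 0.83 in WT, against 1.89 and 1.10 over all probes. The mean pairwise correlation over members was 0.859 between WT arrays and 0.667 between KO arrays, against 0.799 and 0.659 over all probes, as a description across probes, which are not independent. Members above background on all 14 arrays numbered 41 (background 23.8%), 80 were above it on all 7 WT arrays (background 55.4%) and 43 on all 7 KO arrays (background 24.8%).

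**Figure D3:**
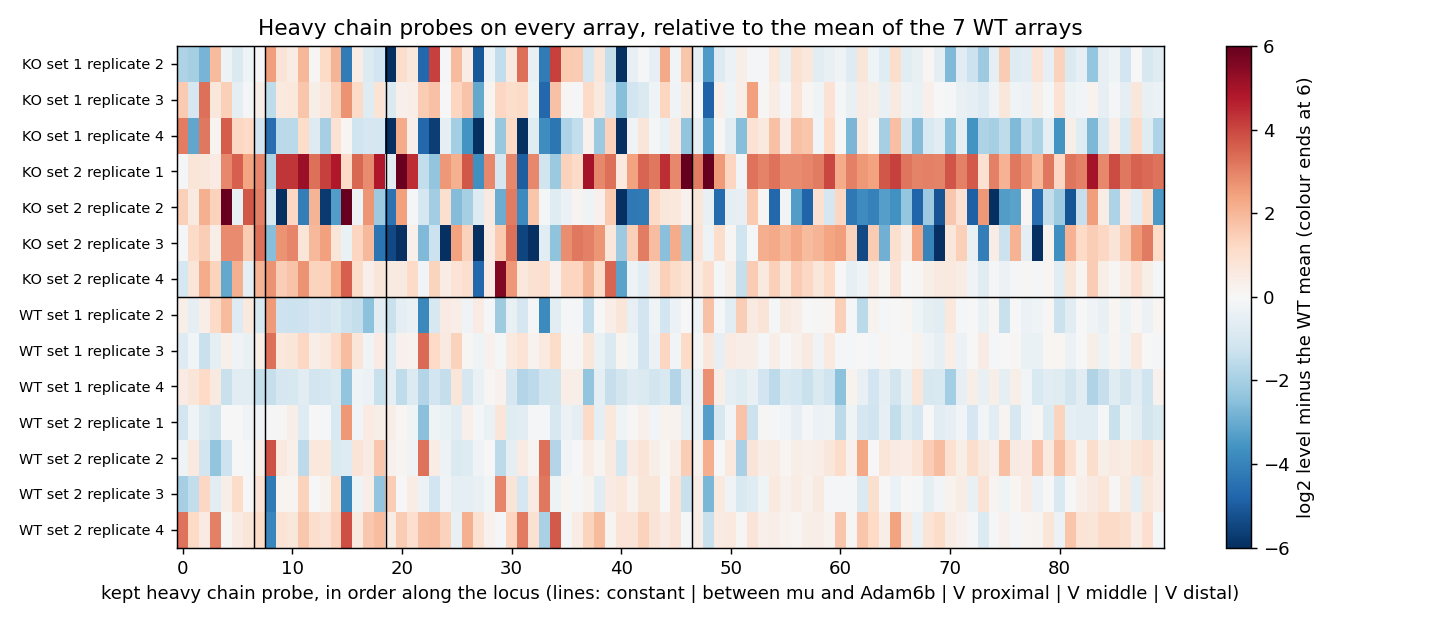
Level of the 90 tested heavy chain probes on each of the 14 arrays minus the mean of that probe over the 7 WT arrays, on the log2 scale (red higher, blue lower, colour ends at 6), in order along the locus. KO set 2 replicate 1 is higher over most V probes, with 42 of 82 more than 3 log2 units above the WT mean (13.8% of all tested probes), and KO set 2 replicate 2 has 27 of 82 more than 3 below it (5.80% of all tested probes, with 24.4% more than 3 above).

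Single KO arrays departed from the WT mean in different ways. On KO set 2 replicate 1 the median V probe lay 3.01 above its WT mean, the mu probe 2.37 above and all tested probes 0.83 above at the median. On KO set 2 replicate 2 the mu probe lay 3.70 above its WT mean, while the median V probe was -0.86 and the delta probe -0.43, with all tested probes at 1.20. That array detected 44 of 82 V probes and 48 of the 90 members, the fewest of any array, and it also had the fewest probes above background in all (20.6%). On KO set 1 replicate 4 the mu probe was 1.20 above and the median V probe -0.91. On the 3 KO arrays that were not dim, the mu probe was between -0.56 and -0.12 and the median V probe between -0.33 and 0.57, and the 7 WT arrays lay between -0.64 and 0.74 for mu and between -0.90 and 0.70 for V probes. The mu probe thus lay above the WT range on the dim KO arrays only. The V median departed widely on KO set 2 replicate 1 alone. On KO set 2 replicate 2 it lay within the WT range. On KO set 1 replicate 4 and set 2 replicate 3 (0.87) it lay just outside. The part of signal strength in these departures was not tested.

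**Figure D4:**
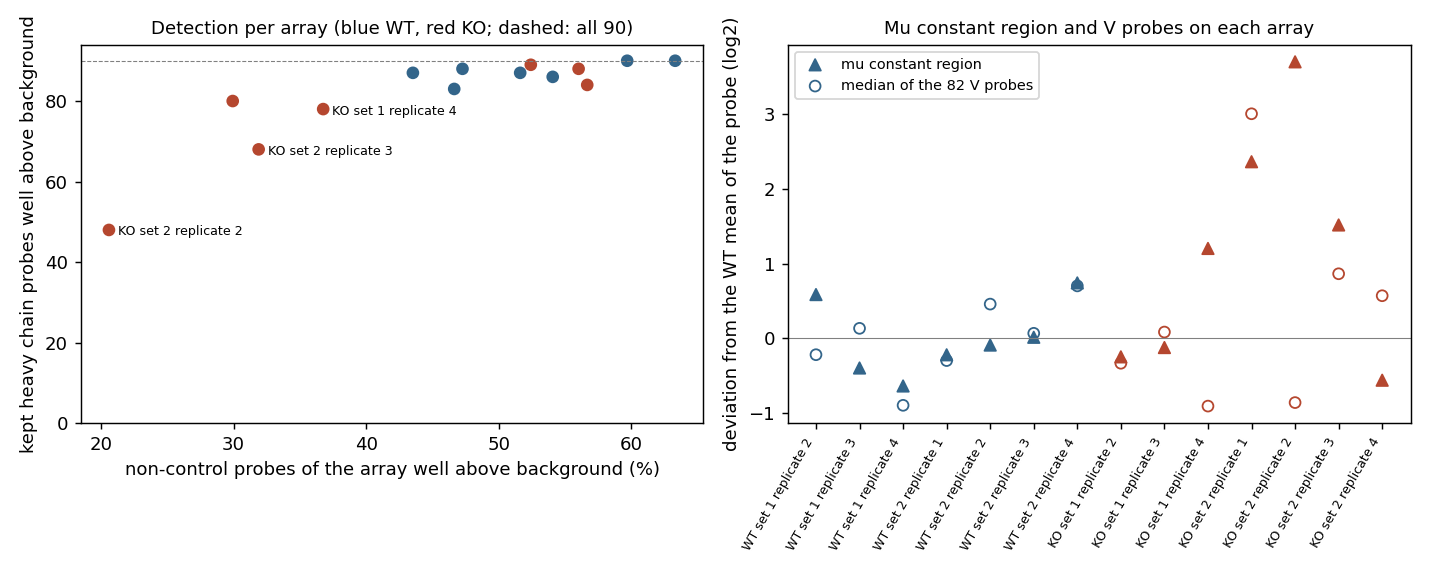
Left, tested heavy chain probes well above background on each array (of 90) against the share of all non-control probes above background. Right, deviation of the mu probe (triangles) and of the median V probe (circles) from the WT mean, log2. KO set 2 replicate 2 detects 48 of 90 members, and its mu probe stands at 3.70. Its V median stands at -0.86, within the WT range of -0.90 to 0.70.

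V segments of a family resemble each other, and some probes could read each other's transcripts. No 2 members had the same sequence. Over an ungapped overlap of at least 40 bases, 22 pairs of tested members were at least 90% identical, involving 31 of the 90 probes in 11 groups of up to 6. The pairs below show how close this can be, with differing bases in capitals.
FM179586: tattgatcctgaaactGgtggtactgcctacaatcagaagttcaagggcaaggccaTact
FN652764: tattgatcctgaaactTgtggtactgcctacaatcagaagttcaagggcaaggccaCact
AF006582: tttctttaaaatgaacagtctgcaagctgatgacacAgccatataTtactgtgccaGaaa
AF537087: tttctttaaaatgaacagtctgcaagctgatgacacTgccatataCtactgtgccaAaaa
FM179586 and FN652764, distal V probes, differ at 2 bases and had differences of 0.92 (SE 0.59) and 0.75 (SE 0.58). AF006582 (114826478 to 114826537) and AF537087, proximal V probes, differ at 3 bases and had 0.32 (SE 1.18) and 0.29 (SE 1.15). On KO set 2 replicate 2 they read -1.64 and -1.69, whereas the second AF006582 probe, which starts at 114826538, next to the first, read 6.04. Levels over the 14 arrays correlated at a median of 0.95 within such pairs and 0.33 over all other pairs, as a description. Within single pairs the correlation went down to 0.49. Whether close pairs read the same transcripts was not tested, and they are not counted as separate observations. JX120281, JX120259 and X87746 are at most 65.4% identical to any other member.

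The difference between genotypes was compared between the sets. Within set 1 and within set 2, limma called 0 of 90 members in either direction (background 0% higher and 0.0236% lower in set 1, 0% and 0.0135% in set 2). The contrast of set 2 with set 1 passed in 0 members (background 0%), and 3 had an unadjusted p under 0.05 (background 5.37%). The largest was EU568224, from a monoclonal autoantibody, with -5.58 (SE 1.79) in set 1 and 3.18 (SE 1.55) in set 2 (adjusted p of the difference = 0.863). Its KO arrays read -3.37, -4.80 and -3.25 in set 1 and 7.35, -0.42, -0.28 and 1.09 in set 2, and its WT arrays 1.79, 0.74 and 2.80 in set 1 and -3.25, 2.22, -2.68 and -1.28 in set 2. The other members with p under 0.05 were JX120264 and BC019489 (IgG2a), which met the detection rule only through WT. KO set 1 replicate 3 was the KO array of set 1 on which X87746 and JX120259 read highest, and without it 2 KO arrays remain in that set. With these, X87746 and JX120259 were at -7.72 and -8.18 within set 1 (limma adjusted p = 0.0369 and 0.0453), where 0.583% of all probes were called lower and 0.118% higher, and X87746 met the detection rule only through WT.

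Other immunoglobulin probes gave the setting for these values. Of 39 tested kappa light chain probes, 0 passed in either direction, with 7 higher and 1 lower at an unadjusted p under 0.05 (background 8.18% and 5.38%), and a median relative difference of -0.08. A V kappa probe outside that list, X53355, described as coming from a hybridoma against phosphatidylcholine, read 6.24 to 8.45 on WT and -1.83 to 5.59 on KO arrays. Its relative difference was -7.06 (SE 1.05, limma adjusted p = 0.0301). On KO arrays it was -0.52, 5.59 and -1.83 in set 1 and -1.54, -1.57, 1.89 and 3.15 in set 2. All 7 KO arrays lay below all WT arrays, as for JX120281, but the KO arrays stood in another order: JX120281 was highest on set 2 replicate 2, where X53355 read -1.57, and X53355 on set 1 replicate 3. Of 32 tested probes in the interval with no immunoglobulin wording in their description, 0 passed (2 higher and 0 lower at an unadjusted p under 0.05, background 8.18% and 5.38%), and their median was -0.03.

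Genes that act with or on the heavy chain were taken as a list of 38, with 36 on the array and 31 tested. None passed, with 3 higher and 1 lower at an unadjusted p under 0.05 (background 8.18% and 5.38%), and their median relative difference was 0.41. The receptor partners Cd79a and Cd79b, which carry the signal of membrane immunoglobulin, had differences of 0.98 (SE 0.66) and 1.80 (SE 0.85), with limma adjusted p of 0.465 and 0.370. The joining chain gene Igj, which links IgM into pentamers, had -0.17 (SE 0.92). The 3 higher genes were factors of the locus, the octamer coactivator Pou2af1 at 2.49 (SE 0.79), Ikzf1 (Ikaros) at 2.66 (SE 0.92) and the insulator protein Ctcf at 2.15 (SE 0.81), with adjusted p of 0.292, 0.309 and 0.328. The recombinase genes Rag1 and Rag2 were above background on 1 KO array each and on no WT array. Of 6 secretion genes, such as Prdm1 and Mzb1, 0 had a p under 0.05.

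Markers show which cells the samples held. B-1a markers were tested in 7 of 7 genes with 0 called, and their summed level was 7.49 to 11.44 in KO and 7.16 to 9.07 in WT. Their median relative difference was -0.12, with 3 of 7 above the all-probe median, and 1 gene was higher and 1 lower at an unadjusted p under 0.05. The lower was Bhlhe41, a regulator of B-1a cell identity, at -4.61 (SE 1.10, limma adjusted p = 0.182). Cd5 was detected on 3 KO and 6 WT arrays and had -0.62 (SE 0.77). Follicular B-2 markers were tested in 5 of 5 genes with 0 called, and 2 were higher at an unadjusted p under 0.05, among them Tnfrsf13c at 3.33 (SE 0.83). Their median relative difference was 1.25, with 5 of 5 above the all-probe median. The summed level of the follicular list was 5.98 to 10.87 in KO and 5.10 to 7.37 in WT. The part of these markers in the V probe differences was not tested. Of plasma cell markers 4 of 6 were tested, and Sdc1 and Tnfrsf17 were not well above background on any WT array. T cell markers were tested in 4 of 6 genes, macrophage markers in 6 of 7, mast cell markers in 1 of 4, erythroid markers in 2 of 3 and neutrophil markers in 0 of 4, all with 0 called and none with an unadjusted p under 0.05.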

How the data were processed

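Groups came from the genotype label, and the set from the 2 numbering styles of the sample titles. Per the labels, total RNA was labelled with Cy3 by an undisclosed company protocol, so amplification is unknown. Per the file headers, Agilent Feature Extraction 10.7.3.1 measured spot intensity, and positions refer to mm9. Per the file headers, other columns score each spot 0 or 1 for saturation, outliers and standing well above background. The deposited log2 table, with a median of 3.95 in every column, follows the scanner files. Its tool and settings are unknown here.

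The processed intensity was put on the log2 scale and the 75th percentile of an array's non-control spots was subtracted. Spots of a probe were averaged without outliers. The test was lmFit and eBayes (limma 3.58.1, R 4.3.3) on all 14 arrays with the set as covariate, two-sided, with Benjamini-Hochberg adjustment over 29689 probes and a threshold of 0.05. Within-set differences and their contrast came from a fit of 4 cell means. Exact permutation exchanged genotypes within sets (1400 arrangements). The fit was tested on simulated data, with 50 probes changed at each of 4 sizes. At an adjusted p under 0.05 it recovered 4% of changes of 2 log2 units and 76% of changes of 4. It recovered 98% of changes of 6 and 100% of changes of 8. Of 156 calls, 17 were false. A count of 0 therefore does not show that changes of about 2 log2 units are absent. Sequences come from the scanner files, and gene order from a RefSeq table of GRCm38.p6, used for order only. Figures used matplotlib 3.10.9.

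Named were the tested constant region, Ighg and S107 probes, the 8 members with the smallest p in each direction, 4 by the dependence on the set and 4 by WT spread. X53355, M32051, U55531, the probes named by V segment or Igh-VJ558 and the close pairs were chosen after their values were seen. Members and lists were chosen with earlier results of these data known. Values of some listed genes are not reported here. The number of arrays limits the precision. Alternatives were 3 scalings, normexp, the deposited values, 2 detection filters, no set term, slide or replicate as a block, each array or the dim arrays left out, the words of the rule, and array quality weights. Scan and slide coincide.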

Additional observations from a re-analysis of the deposited data

Results flagged for a closer look

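In 3 of the named probes, 1 of the 7 arrays of a genotype lay apart from the other 6. The gamma polypeptide probe ENSMUST00000103418 read -4.63 on KO set 1 replicate 2, the lowest KO array. BC092269, named Ighg but placed among V segments, read -1.65 on KO set 2 replicate 3. The distal V probe U22990 read 4.57 on WT set 2 replicate 2, the highest WT array. Over all 90 members, 20 of 180 groups of 7 arrays (11.1%) had such an array, and near-identical probes are not independent of each other. Chance alone marks about 1 in 20, but the share over all tested probes is not given here. The count is therefore not read as particular to the heavy chain probes.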

How the results depend on the processing

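Counts of members passing stayed at 0 in both directions, except that 1 was lower with normexp and 1 with array quality weights, JX120281 in both. Over the arrays left out in turn, the set 1 count ran from 0 to 2. With the percentile taken over probes detected on every array, the scaling moved the members' median difference to -0.92 and that of all probes to -1.02. Probes called over the whole array numbered 9, but 134 with that scaling, 26 with quantile normalization and 26 with the deposited values. They numbered 13 with normexp, 37 with array quality weights, 1 when above background on all 14 arrays and 5 without the dim arrays. With 1 array left out they ran from 5 to 65. The replicate numbers did not pair the samples (r from -0.22 to 0.19 between same-numbered arrays, 2 of 14 closest to their own number). With the replicate block 0 members passed and the median was 0.10 relative to all probes. Relative differences of named probes kept their sign in 730 of 762 recomputations. This count overstates stability, since some alternatives can hardly change a relative difference. These are scaling to probes detected on every array, centring on the members, no set term and the replicate block. The deposited values gave nearly the same differences as quantile normalization. With quantile normalization gamma 2C turned to -0.32, mu to -0.017, AF303881 to -0.094 and JX120264 to -0.28. The deposited values gave -0.32, -0.014, -0.094 and -0.28. Normexp gave X66662 0.12 and array weights 0.42. Without the filter gamma 2C was -0.28. With signal required on all 14 arrays AF303881 was -0.075 and JX120264 -0.26. Without the dim arrays the values were -0.40 for gamma 2C, -0.86 for gamma 3, -0.18 for mu, 1.05 for JX120314, 0.34 for BC092269, 1.91 for X66649, 2.05 for X66662, 0.37 for JX120343 and 0.58 for U22990. Leaving out 1 array, gamma 2C ran from -0.38 to 0.72, AB734727 from -0.53 to 0.26 and BC092269 from -1.21 to 0.35. The cause of these turns was not tested. Dim arrays limit all V probes that read near background in KO.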
